A study of Bos taurus with 6 samples.

Results

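The sirtuins are a family of 7 NAD-dependent protein deacylases, SIRT1 to SIRT7, and they were read here on a bovine oligonucleotide array in granulosa cells of aged and young cows. They were taken as every probe whose annotated gene symbol is one of these names, which gave 17 probes for 7 of the 15216 genes with a named probe. The 6 donors were Hereford cows, of which 3 were multiparous (the aged group) and 3 were nulliparous heifers (the young group), and RNA was taken from the dominant follicle before ovulation. All 6 cows, of both ages, received PGF2 alpha and then 25 mg of luteinizing hormone (LH) into the muscle on day 6, and follicles were collected on day 7, 24 h later. The arrays compared cows directly, as the first pair (aged 13, young 11), the second pair (aged 110, young 7) and the third pair (aged 126, young 184). A pair was run on 2 arrays, once with the aged cow in Cy3 and once with it in Cy5, so that n = 3 pairs of separate cows. The labels speak of mothers and daughters among the cows, but do not tie this to the pairs on the arrays. Every cow has aspiration as its collection method, while the protocol also mentions removal of the ovary, and RNA went through 2 rounds of linear amplification.

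Sirtuins remove acetyl and longer acyl groups from lysines and use up NAD in doing so, which ties their activity to the NAD supply of the cell. In mouse and human cells SIRT1, SIRT6 and SIRT7 are mainly nuclear, SIRT2 is mainly cytosolic, and SIRT3, SIRT4 and SIRT5 are mitochondrial. SIRT1 and SIRT3 have been studied in ovarian ageing because they act on the transcription factors and mitochondrial enzymes of the oxidative stress response. Array signals are RNA levels and do not measure protein or enzyme activity.

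Before the results, young cows 11 and 7 and aged cow 126 have to be set apart from the other cows. Levels are log2 signals of a channel, averaged over both dyes, and compare cows for 1 probe only. Of the granulosa markers, 8 of 12 were tested, and the log2 of their summed level was 16.76 to 17.29 in aged cows and 16.82 and 16.93 in young cows 7 and 184, against only 12.69 in young cow 11, whose library was thus low in markers of the labelled cell type. INHA, the inhibin alpha subunit, was at 10.48 in cow 11 and at 14.87 to 15.17 in the other 5 cows. Such a sum mostly follows its brightest markers. The median level of the tested granulosa markers was 8.86 in cow 11 and 11.47 in cow 7, against 12.04 to 14.17 in the remaining cows. TNFAIP6 was at 8.90 in cow 11 and 9.19 in cow 7, against 14.99 to 15.10 in the remaining cows, while INHBA was highest in cow 7 (15.37). Of the epithelial markers, 7 of 10 were tested, and their summed log2 level was 17.10 in cow 11 and 17.17 in cow 7, against 13.64 to 14.34 in aged cows and 14.87 in young cow 184. Leukocyte markers, 7 of 10 tested, summed to 15.40 in aged cow 126. They summed to 13.11 and 13.49 in aged cows 13 and 110 and to 13.61 to 14.58 in young cows. TYROBP was at 13.87 in cow 126 and at 8.25 to 10.61 in the other cows. The tested members PTPRC and GZMB did not follow this. PTPRC was at 12.03 in cow 126, below young cows 7 (12.54) and 184 (12.33). GZMB was lowest in cow 126, at 12.03 against 12.62 to 13.95 in the other cows. The 2 tested theca markers of 5 summed to 9.48 to 10.24 in aged and 10.06 to 12.95 in young cows. The high sums of young cows 11 and 7 came from ALDH1A1, at 12.88 in both against 8.45 to 9.76 in the other cows. INSL3, the other tested theca marker, was at 8.42 to 8.52 in aged and 8.52 to 8.72 in young cows. The 2 tested erythrocyte markers of 4 summed to 9.43 to 11.45 in aged and 10.38 to 12.66 in young cows. The defining markers FOXL2 (granulosa, above background in 1 of 12 channels), CDH1 (epithelial, 2 of 12) and CYP17A1 (theca, 5 of 12) were at or near background in most channels. Between 46.5% and 71.9% of spots per channel lay above the negative controls, with a single lower value of 24.6% for aged cow 126 in Cy3. The limit for a spot is the mean + 2 SD of the negative controls. Their SD was 99.2 in that channel, against 10.1 to 28.2 in the other channels. In these bulk samples fewer cells of a type and less RNA per cell cannot be told apart.

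No sirtuin differed between aged and young cows past the threshold. Of the 17 probes, 9 were bright enough to test, which gave 6 of the 7 genes a tested representative (the brightest) probe, with SIRT4 below the filter. Among these 9 probes 0 passed a Benjamini-Hochberg adjusted p of 0.05 in limma, as did 0% of all 16241 tested probes, and 2 had an unadjusted p under 0.05, where 10.3% of all tested probes did. SIRT1 and the brighter SIRT2 probe had the highest mean ratios, with the aged cow well above the young one in 2 pairs. In the third pair the aged cow was below, with a log2 ratio of -0.14 for SIRT1 and -0.46 for this SIRT2 probe. SIRT3 had a small ratio above 1 in every pair when averaged over both dyes. SIRT5, SIRT6 and SIRT7 had mean ratios close to 1. The representative probe was higher in the aged cow for 5 of 7 sirtuins in the pair of cows 13 and 11, 5 in the pair of 110 and 7, and 4 in the pair of 126 and 184, counting the untested SIRT4, which was higher in each. Of all 7435 tested genes, 53.2%, 52.5% and 50.9% were higher in the aged cow in these pairs.

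**Figure D1:**
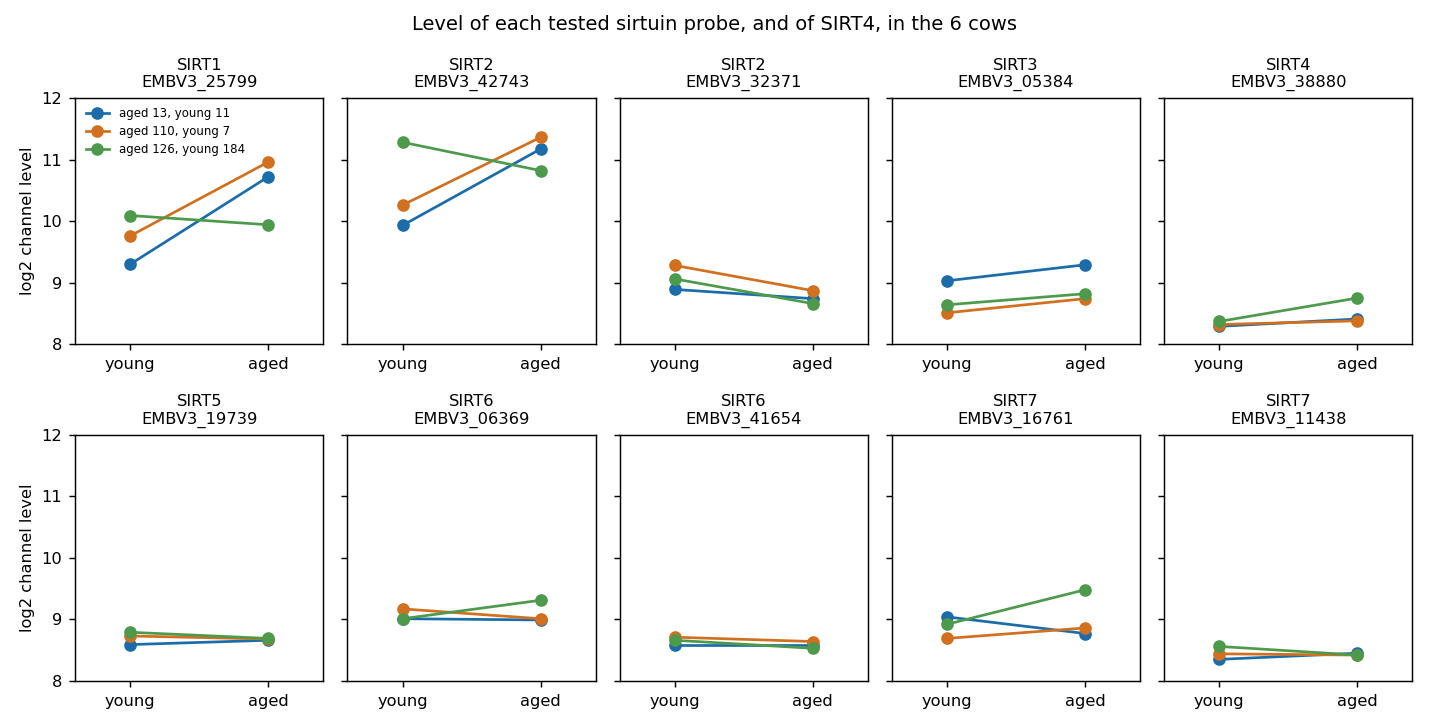
Log2 channel level of each tested sirtuin probe, and of the SIRT4 probe below the filter, in young and aged cows, with a line joining the cows of each pair, and levels comparable within a panel only. SIRT1 and the brighter SIRT2 probe run from 9.30 to 10.96 and from 9.93 to 11.36 and cross in the pair of cows 126 and 184, while the second SIRT2 probe is lower in each aged cow.

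SIRT1 is a nuclear deacetylase that, in mouse and human cells, acts on p53, FOXO factors and PGC-1 alpha. Its brightest probe, EMBV3_25799, was above background in 12 of 12 channels. Its log2 level was 10.72, 10.96 and 9.94 in aged cows 13, 110 and 126. It was 9.30, 9.76 and 10.09 in young cows 11, 7 and 184. Aged cows 13 and 110 were the highest and young cow 11 the lowest, while aged cow 126 lay between young cows 7 and 184, so the ages overlapped. The readings of 1 cow in the 2 dyes lay 0.06 to 0.39 apart, and cows 184, 126 and 7 followed each other by less than the 0.39 of cow 126. Aged cows 13 and 110 also had the highest scanner values before any correction. Aged cow 13 read 2152 units in Cy3 and 1739 in Cy5, and aged cow 110 read 2345 and 2230. Aged cow 126 read 938 in Cy3, inside the range of 750 to 1066 over the young cows, and 1122 in Cy5, just above it.

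The log2 ratio of aged over young for SIRT1 was 1.42 in the first pair, 1.20 in the second and -0.14 in the third. Its mean was 0.83 ± 0.85 (SD, n = 3 pairs), a 1.77-fold higher geometric mean in aged cows, with a 95% interval from -0.44 to 2.09. The adjusted p was 0.571 in limma, and the exact sign-flip test of the pair ratios, two-sided, gave p = 0.5, where 0.25 is the smallest value that 3 pairs allow. The ratio was above 0 on 5 of 6 arrays. Without the pair of cow 11 the mean was 0.53, and without that of cow 7 it was 0.64. Without the pair of cows 126 and 184 it was 1.31, with a limma adjusted p of 0.248. That value is also the one within the slide that both other pairs shared, since the arrays of cows 126 and 184 were on other slides as far as the names of the scans tell, while the labels give no slide. In the pairs of cows 11 and 7, whose epithelial marker sums stood apart, 6.99% and 9.79% of all tested genes had a ratio as high as SIRT1 or higher, and 70.3% did in the third pair. The part of the marker shift in the SIRT1 values was not tested.

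The 2 further SIRT1 probes were dim. EMBV3_29025 was above background in 10 of 12 channels and had log2 ratios of 0.14, 0.09 and 0.14, with a mean of 0.12. Of its aged channels, only that of cow 126 in Cy3 was below its limit (323 against 414). EMBV3_12468 was above background in 0 of 12 channels and had a mean of 0.06. Neither was tested, and neither showed the high ratios of the brightest probe in the first and second pairs.

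**Figure D2:**
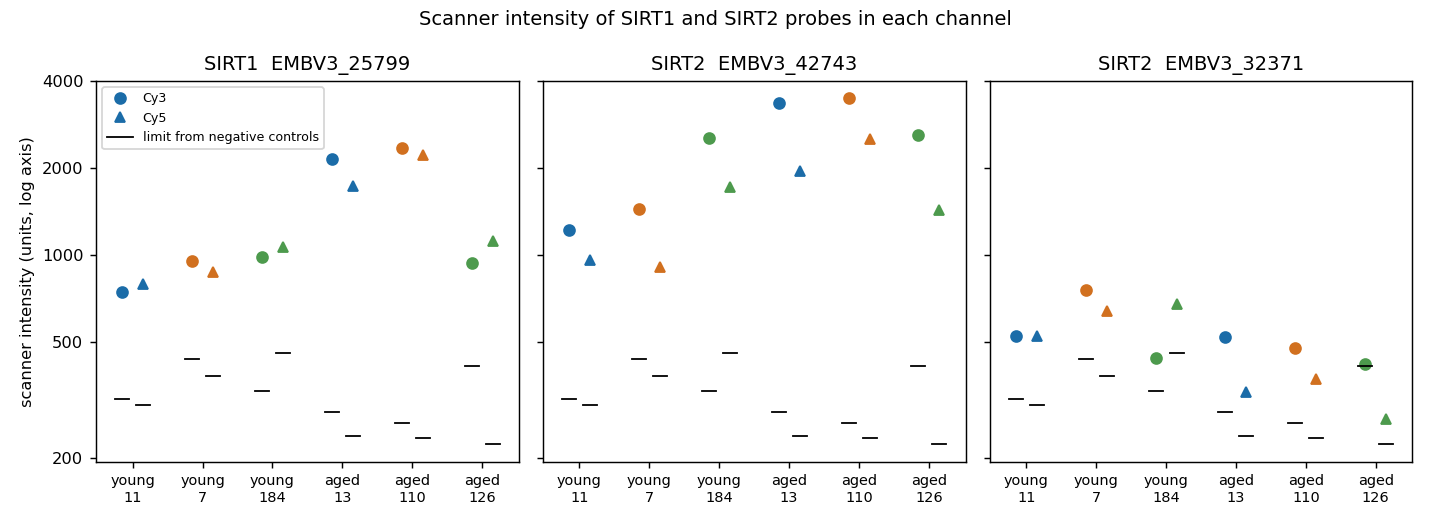
Scanner intensity, on a log axis and before background correction, of the brightest SIRT1 probe and both SIRT2 probes in each cow, with circles for Cy3, triangles for Cy5, 1 colour for both cows of a pair and black lines at the limit from the negative controls. For SIRT1 the 4 readings of aged cows 13 and 110 (1739 to 2345) lie above all the others, and the second SIRT2 probe comes within a few units of its limit in the Cy3 channel of aged cow 126 (420 against 414).

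SIRT2 is a mainly cytosolic deacetylase known for acting on alpha-tubulin, and its 2 probes disagreed. The brighter, EMBV3_42743, was above background in 12 of 12 channels. Its log2 level was 11.17, 11.36 and 10.82 in aged cows 13, 110 and 126, and 9.93, 10.26 and 11.28 in young cows 11, 7 and 184. Young cows 11 and 7 were the lowest, and young cow 184 was above aged cows 13 and 126, so the ages overlapped. The readings of 1 cow in the 2 dyes differed by 0.13 to 0.76, and no neighbours in the order of the 6 cows stood further apart than the larger of their own dye gaps.

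The ratio of this SIRT2 probe had the shape of that of SIRT1. It was 1.24, 1.10 and -0.46 in the 3 pairs, with a mean of 0.62 ± 0.94 (SD), or 1.54-fold, a 95% interval from -0.78 to 2.02 and a limma adjusted p of 0.669. The exact sign-flip p was 0.5. Without the pairs of cow 11, cow 7 and cow 184 in turn the mean was 0.32, 0.39 and 1.17. The probe also moved with the dye. With the aged cow in Cy3 the ratios were 1.57, 1.45 and 0.09, and with the aged cow in Cy5 they were 0.90, 0.74 and -1.01. The mean difference between the orientations was 0.82, a size that 4.09% of tested genes reached, against -0.29 for SIRT1, which 39.2% reached. Arrays with aged cows in Cy3 alone gave a mean of 1.04 and those with aged cows in Cy5 alone gave 0.21. The mean over both orientations, used above, balances the dyes.

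The second SIRT2 probe, EMBV3_32371, pointed the other way. It was above background in 12 of 12 channels, with log2 levels of 8.74, 8.87 and 8.66 in aged cows 13, 110 and 126. They were 8.89, 9.28 and 9.06 in young cows 11, 7 and 184. Every aged cow was below every young cow, the only tested sirtuin probe of 9 without overlap between the ages, where 17.4% of all tested probes did not overlap. The separation was narrow, since aged cow 110 (8.87) and young cow 11 (8.89) were closer than their own dye gaps of 0.13 and 0.22. The log2 ratios were -0.15, -0.41 and -0.39, with a mean of -0.32 ± 0.14 (SD), a ratio of 0.802 and a 95% interval from -0.62 to -0.02. The unadjusted p of 0.0422 became 0.47 after adjustment in limma. The probe was lower in the aged cow on 6 of 6 arrays, as 7.97% of all tested probes were. Leaving out each pair in turn kept the mean between -0.40 and -0.27.

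Both SIRT2 probes read the same RNA on the same arrays, so they are not replicates of each other. The difference between their log2 ratios, brighter minus dimmer, was 1.39, 1.51 and -0.07 in the 3 pairs, with an exact sign-flip p of 0.5. Among the 1346 genes with at least 2 tested probes, the mean ratios of the 2 brightest probes differed in sign in 425 genes, or 31.6%. The median gap between them was 0.25, and 9.58% had a gap as large as the 0.94 of SIRT2. Discord in sign was thus common on this array, and its size in SIRT2 was larger than in most such genes. Where the probes lie on the SIRT2 transcript was not analysed here, so no direction is given for the gene, and the mean over both probes was 0.15.

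SIRT6, a nuclear enzyme that in mouse and human cells acts on histone H3 at telomeres and at sites of DNA repair, had a ratio close to 1. The log2 level of its brightest probe, EMBV3_06369, was 8.99, 9.01 and 9.31 in aged cows 13, 110 and 126 and 9.01, 9.17 and 9.01 in young cows 11, 7 and 184. The ages overlapped, though aged cow 126 was the highest. The readings of cows 126 and 184 in the 2 dyes lay 0.53 and 0.68 apart. The mean log2 ratio was 0.04 ± 0.23 (SD), with a 95% interval from -0.36 to 0.44 and a limma adjusted p of 0.905. The second tested probe, EMBV3_41654, had a mean of -0.07 (limma adjusted p = 0.751), and the remaining dim probe, EMBV3_08934, had 0.00.

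SIRT7 is a nucleolar sirtuin linked to transcription of ribosomal RNA genes. EMBV3_16761 had log2 levels of 8.77, 8.86 and 9.48 in aged cows 13, 110 and 126, and of 9.04, 8.69 and 8.92 in young cows 11, 7 and 184. Aged cow 126 was the highest, and its pair was the one with the highest ratio, 0.56 against -0.27 and 0.16. Cow 126 was also the aged cow with the high leukocyte marker sum, 15.40 against 13.11 and 13.49, and the part of those markers in the SIRT7 values was not tested. The mean was 0.15 ± 0.42 (SD), with a 95% interval from -0.50 to 0.80 and a limma adjusted p of 0.791. The second probe, EMBV3_11438, had a mean of -0.02 (limma adjusted p = 0.926) and ratios of 0.10, -0.02 and -0.14, an order of pairs opposite to that of the first probe.

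SIRT3, the main deacetylase of the mitochondrial matrix, had the smallest SD of its ratio over pairs among the 6 tested representative probes. EMBV3_05384 had log2 levels of 9.29, 8.74 and 8.82 in aged cows 13, 110 and 126. It had 9.03, 8.51 and 8.64 in young cows 11, 7 and 184. The ages overlapped, because both cows of the first pair were above all others, but within each pair the aged cow was higher in the mean over both dyes. The log2 ratios were 0.27, 0.22 and 0.18, with a mean of 0.22 ± 0.05 (SD), or 1.17-fold, and a 95% interval from 0.00 to 0.44. The unadjusted p of 0.0492 became 0.484 after adjustment in limma, and the exact sign-flip p was 0.25, the smallest possible.

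SIRT3 was thus 1 tested sirtuin probe of 9 that was higher in the aged cow in all 3 pairs, where 17.3% of all tested probes were. The 2 tested probes lower in all 3 pairs were the second ones of SIRT2 and SIRT6, the latter at 0.00 after rounding in the first pair, against 22.1% of all tested probes. This SIRT6 probe had 5 aged and 6 young channels above background. It thus passed the filter only through the young cows, where it was higher, so its direction is not independent of the filter. SIRT3 was close to background, at 11 of 12 channels above it. The channel below was that of aged cow 126 in Cy3, at 383 against a limit of 414. The array with that channel gave a log2 ratio of 0.39, and the other array of the pair gave -0.04. The positive sign in the third pair thus rests on a channel below its limit, and the ratio was above 0 on 5 of 6 arrays. The other SIRT3 probes, EMBV3_39602 (8 of 12) and EMBV3_26632 (5 of 12), had means of 0.04 and 0.00.

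SIRT4, a mitochondrial sirtuin known for its action on glutamate dehydrogenase, had a single probe, EMBV3_38880, above background in 9 of 12 channels and therefore not tested. Of its aged channels, only that of cow 126 in Cy3 was below its limit (352 against 414). Its log2 level was 8.41, 8.38 and 8.75 in aged cows 13, 110 and 126 and 8.29, 8.32 and 8.37 in young cows 11, 7 and 184. The lowest aged level (8.38) was just above the highest young one (8.37), and cow 126, the aged cow with the high leukocyte marker sum (15.40), stood above the other 5; the part of those markers was not tested. The log2 ratios were 0.11, 0.06 and 0.38, with a mean of 0.19 ± 0.17 (SD), and the ratio was above 0 on 4 of 6 arrays.

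SIRT5, which removes succinyl, malonyl and glutaryl groups in mitochondria, varied the least between cows among the representative probes. EMBV3_19739 had log2 levels of 8.66, 8.68 and 8.69 in aged cows 13, 110 and 126 and of 8.59, 8.73 and 8.79 in young cows 11, 7 and 184. The 3 aged cows lay inside the range of the young ones. The probe was close to background, at 11 of 12 channels above it, with aged cow 126 in Cy3 at 350 against a limit of 414. The offset of the background correction shrinks ratios of such dim probes, and its part in the small spread was not tested. The mean log2 ratio was -0.02 ± 0.09 (SD), with a 95% interval from -0.27 to 0.22 and a limma adjusted p of 0.9. The dim probes EMBV3_29670 and EMBV3_38230 had means of 0.03 and 0.11.

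**Figure D3:**
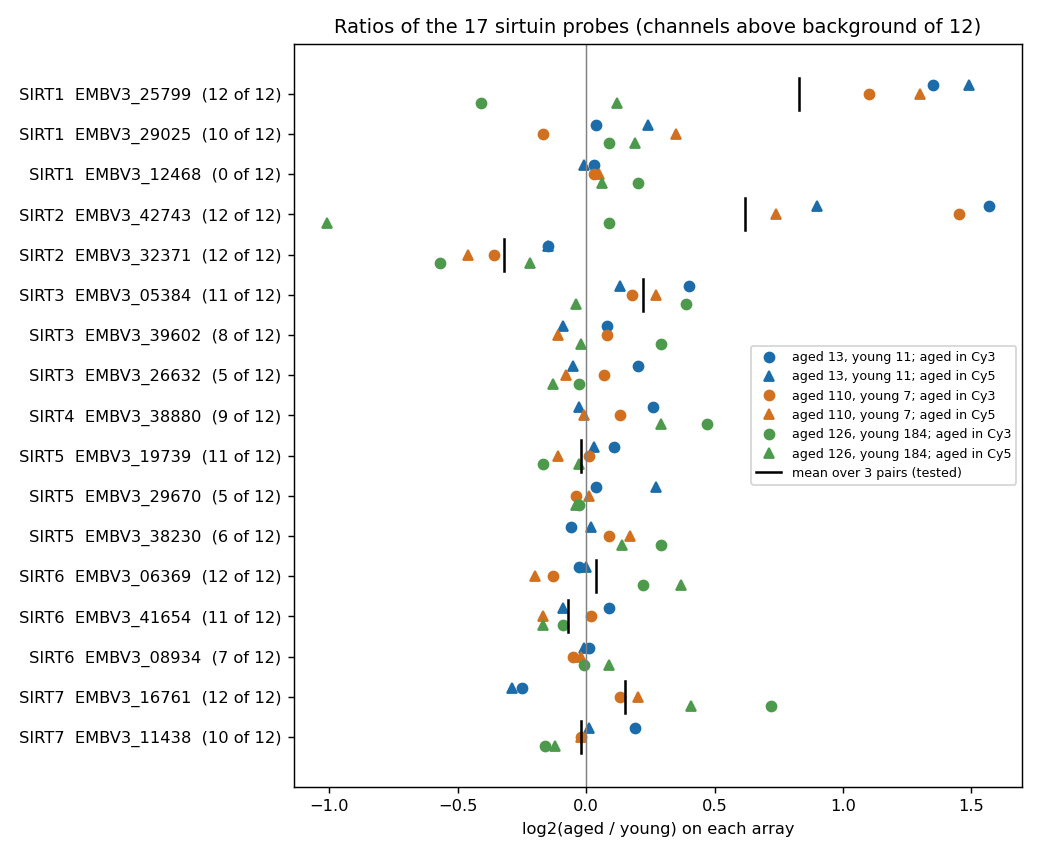
Log2 ratio of aged over young for all 17 sirtuin probes on each of the 6 arrays, coloured by pair, with the dye of the aged cow as the symbol and the number of channels above background in brackets. The brightest SIRT1 and SIRT2 probes reach 1.49 and 1.57 in the first pair, their points for the pair of cows 126 and 184 lie to the left of those of the other pairs, and the remaining probes stay between -0.57 and 0.72.

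In the authors' deposited table of log2 ratios, the brightest SIRT1 probe stood at 1.42, 1.13 and -0.48 in the 3 pairs, and the brighter SIRT2 probe at 1.08, 0.92 and -0.46. The second SIRT2 probe was lower in the aged cow on 6 of 6 arrays in the authors' deposited table too, with a mean of -0.54. For SIRT5 the authors' deposited table gave a mean of -0.26, lower on 6 of 6 arrays, where the scanner values gave -0.02 and 3 of 6. For SIRT7 the authors' deposited table gave 0.35. In a limma fit to those ratios, 0 of 9 sirtuin probes passed the threshold and 0 had an unadjusted p under 0.05. Of all 16241 probes in that fit, 0 passed, and 627 higher and 917 lower ones had such a p.

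SIRT1 and the brighter SIRT2 probe varied together over the 6 cows, with a Pearson r of 0.87 between their log2 levels. The cows of a pair share their arrays, and cows 11 and 7 were the lowest for both probes. The ratio pattern of these 2 probes was not rare, since 427 tested genes (5.74%) had a log2 ratio of at least 1 in both the first and the second pair. Of these, 265 (3.56% of all tested genes) were at or below 0 in the third pair, as SIRT1 and SIRT2 were. The 3 genes most like SIRT1 in level over 6 cows were PSMD7, a subunit of the proteasome lid, at r = 0.999, TMCO3 at 0.992 and SUB1, a transcriptional coactivator, at 0.991. For SIRT2 they were PRXL2C (0.997), HS3ST5 (0.996) and URI1 (0.993). Among the 7434 genes compared, 258 had an r of at least 0.9 with SIRT1 and 343 with SIRT2, so the named ones are the top of long lists.

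The other representative probes had fewer genes alike, 62 at an r of 0.9 or more for SIRT3, 114 for SIRT5, 80 for SIRT6 and 133 for SIRT7. The nearest to SIRT3 were ZNF23, TDP1, a DNA repair enzyme, and BCAR3. The nearest to SIRT5 were EPB41L2, LOC788394 and ALDH1L2, a mitochondrial folate enzyme, with LOC788394 spanning a range of only 0.13 over the cows. The nearest to SIRT6 were ALDH4A1, ARRB1 and DEF8, and those to SIRT7 were UCP2, CCDC102A and PTH2R. With 6 cows these values describe the ordering of these samples.

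NAD supply was followed through 23 listed genes of NAD synthesis, salvage and transport, of which 18 had a probe and 10 were tested. None passed the threshold in limma, and 0 had an unadjusted p under 0.05, where 11.2% of all tested genes did. Of these 10, 1 was higher and 1 lower in the aged cow in all 3 pairs, where 20.1% of all tested genes were higher and 17.6% lower. Their median log2 ratio was 0.09, against 0.06 over all 7435 tested genes. NAMPT, the rate-limiting enzyme of NAD salvage from nicotinamide, had ratios of 0.84, 0.23 and -0.41, with a mean of 0.22 ± 0.63 (SD). SLC25A51, which carries NAD into mitochondria, had a mean of 0.32 ± 0.20, and its second tested probe, with ratios of 0.62, 0.86 and -0.57, had a mean of 0.31. KYNU, a kynureninase of the route from tryptophan, had a mean of 0.25 ± 0.39, and the NAD(H)-cleaving NUDT13 and NUDT12 had 0.42 ± 0.47 and -0.67 ± 0.77. The 2 further NUDT12 probes, both tested, had means of -0.25 and -0.28.

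Of 18 other NAD-consuming enzymes, 8 were tested, 0 passed the threshold in limma and 1 had an unadjusted p under 0.05 (11.2% of all tested genes). In all 3 pairs 2 were higher and 0 lower, where 20.1% and 17.6% of all tested genes were, and their median log2 ratio was 0.08. PARP1, the main poly(ADP-ribose) polymerase of the DNA damage response and the 1 with an unadjusted p under 0.05, had ratios of 0.36, 1.02 and 0.42 and was higher on 6 of 6 arrays. Its mean was 0.60 ± 0.36 (SD), with a limma adjusted p of 0.476. TNKS, a tankyrase, had a mean of 0.19 ± 0.13 and PARP14 had 0.18 ± 0.26. PARP12 spread most, from -2.33 in the pair of cow 11 to 0.96 in that of cow 184, with a mean of -1.06 ± 1.77.

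Among 20 listed regulators and partners of sirtuins, 9 were tested, 0 passed the threshold in limma, 1 had an unadjusted p under 0.05, and 3 were higher and 1 lower in all pairs. The shares over all tested genes were 11.2% at that p, 20.1% higher and 17.6% lower. Their median log2 ratio was 0.28. PRKAA1, a catalytic subunit of the energy sensor AMPK, which in mouse cells raises NAD for SIRT1, had ratios of -0.46, -1.24 and -1.35 and was lower in the aged cow on 6 of 6 arrays. Its mean was -1.02 ± 0.49 (SD), with an unadjusted p of 0.0223 and a limma adjusted p of 0.469. Its second tested probe had a mean of -0.63, and 2 dim ones had 0.04 and 0.05. The AMPK subunits PRKAG2 and PRKAG1 had means of 0.86 ± 0.64 and 0.49 ± 0.47, and GABPB1, a nuclear respiratory factor subunit and SIRT7 partner in mouse, had 0.28 ± 0.17. Its second tested probe had a mean of 0.29 and a dim one had -0.04. The SIRT1 inhibitor CCAR2 had no named probe and was not analysed here.

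The nuclear and cytosolic proteins that sirtuins deacetylate were represented by 29 genes, of which 19 were tested. Of these, 0 passed the threshold in limma, 3 had an unadjusted p under 0.05, and 6 were higher and 0 lower in the aged cow in all 3 pairs, with a median log2 ratio of 0.18. Over all tested genes 11.2% had such a p, 20.1% were higher and 17.6% lower. NR1H3, the liver X receptor alpha and a SIRT1 substrate, had nearly equal ratios of 0.35, 0.33 and 0.39, with a mean of 0.35 ± 0.03 (SD) and a limma adjusted p of 0.469. Its dim second probe, which was not tested, pointed the other way, with ratios of 0.02, -0.57 and -0.10 and a mean of -0.22. NFE2L2, the transcription factor NRF2 of the antioxidant response, had ratios of 0.33, 1.11 and 0.56, with a mean of 0.67 ± 0.40 and a limma adjusted p of 0.47. The brightest probe of each was higher on 6 of 6 arrays, as was PARP1, which stands on this list too. TUBA1A, an alpha-tubulin and SIRT2 substrate, had ratios of 2.49, 1.75 and 0.07, with a mean of 1.44 ± 1.24.

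Mitochondrial sirtuin substrates were the largest of the lists, with 26 of 36 genes tested. Of these, 0 passed the threshold in limma, 5 had an unadjusted p under 0.05, and 5 were higher and 2 lower in all 3 pairs, against 11.2%, 20.1% and 17.6% of all tested genes. Their median log2 ratio was 0.42 over the pairs, but it was 0.65 and 0.57 in the pairs of cows 11 and 7 and -0.12 in that of cow 184. In those pairs 22, 21 and 10 of the 26 were higher in the aged cow, against 53.2%, 52.5% and 50.9% of all tested genes. The 26 include PPID, a mainly cytosolic cyclophilin, with ratios of 0.55, 0.39 and -0.39. The list thus had its high ratios in the pairs where SIRT1 and the brighter SIRT2 probe had theirs and where the epithelial markers of the young cow stood apart, and the part of those markers was not tested.

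Some mitochondrial substrates were higher in the aged cow in each pair. SLC25A5, an ADP/ATP carrier of the inner membrane, had ratios of 1.11, 0.98 and 0.63 and a mean of 0.91 ± 0.25 (SD), with 0.77 for its second tested probe. SDHB and SDHA, subunits of succinate dehydrogenase, had means of 0.66 ± 0.18 and 0.83 ± 0.39, and NDUFA9, a subunit of respiratory complex I, had 0.48 ± 0.11. All 4 were higher on 6 of 6 arrays, and each had a limma adjusted p of 0.469. The second tested SDHB probe had a mean of 0.55, while the dim second SDHA probe had 0.00. SOD2, the manganese superoxide dismutase that SIRT3 deacetylates in mouse, spread from -0.71 in the pair of cow 11 to 1.86 in that of cow 7, with a mean of 0.69 ± 1.30.

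The zinc-dependent lysine deacetylases (HDACs), a family unrelated to sirtuins in mechanism, had a named probe for 8 of 11 genes, of which 3 were tested. In all 3 pairs 2 of them were higher and 0 lower in the aged cow, where 20.1% and 17.6% of all tested genes were, and their median log2 ratio was 0.45. None of the 3 passed the threshold in limma or had an unadjusted p under 0.05 (0 of 3). Of all tested genes, 0 passed and 11.2% had such a p. HDAC2 had ratios of 0.58, 0.65 and 0.11, with a mean of 0.45 ± 0.29 (SD). HDAC1 had 0.00 (just above 0 before rounding), 0.30 and 1.44, with a mean of 0.58 ± 0.76. HDAC8 had a mean of -0.08 ± 0.47. HDAC3 was above background in 0 of 12 channels and was not tested.

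**Figure D4:**
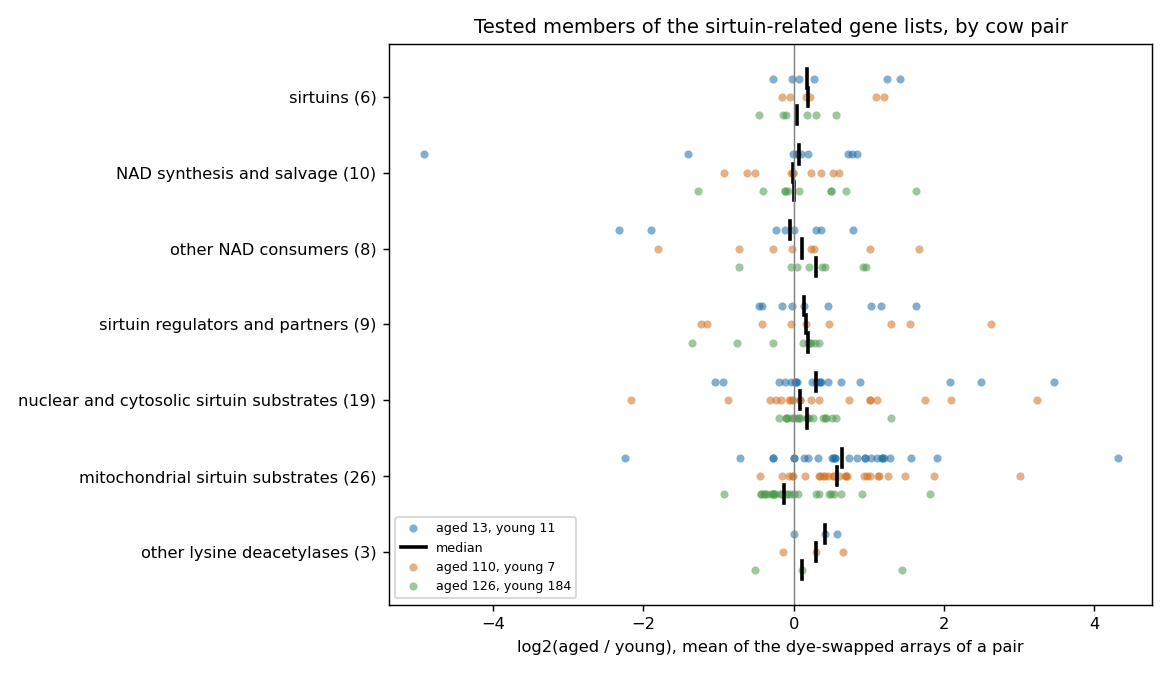
Log2 ratio of aged over young for each tested member of the sirtuins and the 6 related lists, 1 row of points per pair, with the number of tested genes in brackets and a black bar at each median. For mitochondrial substrates the medians are 0.65, 0.57 and -0.12 in the 3 pairs, and the sirtuins span -0.46 to 1.42.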

How the data were processed

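RNA of 3 aged and 3 young cows was measured on 6 arrays of 2 colours. Per the file headers, the deposited scanner files hold mean spot and background intensity per channel on a linear scale, not normalised, and another column, the ignored-spot marks. The authors also deposited log2 ratios. Per the submitters' processing notes limma was used; its version and steps are not given in the sources used here. Set against the scanner values over probes, all 6 columns ran as aged over young (r from 0.85 to 0.95), with medians from -0.0092 to 0.0036; their background correction stays unknown.

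Spot means were corrected by normexp (offset 50, which shrinks ratios of dim probes) and normalised by loess within arrays in limma 3.58.1 (R 4.3.3). Control and ignored spots were left out. Spots were joined by position, since row order differed at 85 spots. Dye-swapped arrays were averaged, and the 3 pair ratios tested against 0 with lmFit and eBayes, two-sided, with Benjamini-Hochberg adjustment over 16241 probes above the mean + 2 SD of 153 negative controls in the channel of 1 age group on all arrays. The pairing comes from the arrays, which hold both cows of a pair. The 3 cow pairs limit the precision, since the dye-swapped arrays of a pair are not separate replicates.

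A gene is represented by its brightest probe. Levels are log2 channel signals after loess and Aquantile. Probe names come from the platform annotation (21790 probes with 1 symbol, 22004 with none), updated through RefSeq; no build is named, so no coordinates are printed. The rule named every sirtuin probe, up to 4 members per list with the smallest unadjusted p, NAMPT, CCAR2, SOD2, HDAC1, HDAC2 and HDAC3 always, and the 3 genes most correlated with each tested sirtuin. Members and lists were chosen with earlier results of these data known. Alternatives are given in the closing section.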

Additional observations from a re-analysis of the deposited data

How the results depend on the processing

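Under 15 alternatives, 0 probes in all and 0 sirtuin probes passed the threshold, including the fit with no replicate block, in which SIRT1 kept a log2 ratio of 0.83 (limma adjusted p = 0.486). Unadjusted p-values under 0.05 numbered 884 higher and 788 lower in aged cows, 1999 and 706 under median centring of each array, 215 and 74 without the pair of cows 110 and 7, and 1700 and 792 without that of cows 126 and 184. Requiring both channels of every array to be above background put the median of all probes at 0.12. The brightest SIRT1 probe ranged from 0.53, with slide as a random block or without the pair of cows 13 and 11, to 1.31 without the pair of cows 126 and 184, with adjusted p from 0.248 to 0.994, and was at 1.10 under median centring. The brighter SIRT2 probe stood at 0.29 with slide as a random block. Spot medians in place of means gave 0.36 for SIRT3, -0.26 for SIRT5 and 0.49 for SIRT7.

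The sign turned in the following cases, and the cause was not tested. With another probe of the gene, SIRT2 was -0.32, SIRT3 0.00 (just below 0), SIRT5 0.03 and 0.11, SIRT6 -0.07 and SIRT7 -0.02, and the mean over both tested SIRT6 probes was -0.02. Without the pair of cows 126 and 184, SIRT5 was 0.01, SIRT6 -0.09 and SIRT7 -0.05. Leaving out each pair in turn, the ratio ran from 0.53 to 1.31 for SIRT1, 0.32 to 1.17 for SIRT2, 0.20 to 0.24 for SIRT3, 0.09 to 0.25 for SIRT4, -0.07 to 0.01 for SIRT5, -0.09 to 0.14 for SIRT6 and -0.05 to 0.36 for SIRT7. Most sirtuin probes lay near background, where small differences were not detectable.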
